A study of Homo sapiens with 20 samples.

Results

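The NF-kB response genes followed here are NFKBIA, TNFAIP3, CXCL1, CXCL2, CXCL3, BIRC3, ICAM1, RELB and NFKB2, 9 of the 26485 gene rows measured. They were chosen by symbol and not by a rule on their values, though with earlier results of these data known. Each had the same isoform row in the table of both experiments. Of the 9, 8 passed the filter for testing, a mean over the 20 libraries of 0.5 or more RPM (reads per 1000000 reads in gene rows), and ICAM1 did not, at a mean of 0.295 RPM.

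RNA of isolated nuclei was sequenced from HCT116, a single human colorectal carcinoma line with wild-type p53, after ribosomal RNA depletion and a directional library preparation. The question was how a stapled peptide designed to block binding of p53 to the Mediator coactivator complex alters transcription when Nutlin-3a, which releases p53 from its ubiquitin ligase MDM2, is present. Nutlin-3a plus peptide (Nutlin_Peg6) meant electroporation with 10 µM peptide and 3 hours in medium with 0.1% DMSO, 10 µM Nutlin-3a and a further 200 nM peptide. Nutlin-3a plus water (Nutlin_H2O) had the same Nutlin-3a and DMSO without peptide. DMSO plus peptide (DMSO_Peg6) had both additions of peptide and 0.1% DMSO without Nutlin-3a, and DMSO plus water (DMSO_H2O) had 0.1% DMSO alone. All 4 conditions were electroporated, and each had 3 libraries in experiment 2 and 2 in experiment 1. No label says that replicates were separate cultures, so p-values measure the spread between these libraries, which may be technical.

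NF-kB is a family of dimeric transcription factors that inhibitor proteins hold in the cytoplasm until a cytokine, a microbial product or DNA damage activates the kinases that mark those inhibitors for destruction. The freed dimers enter the nucleus and switch on chemokines, survival factors, adhesion molecules and their own inhibitors, which then end the response. In the intestinal epithelium the pathway is known for its part in inflammation and in colorectal cancer, and p53 and NF-kB are known to share and compete for coactivators.

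The libraries held 18787172 to 47407746 reads in gene rows in experiment 2 (12 libraries) and 36717795 to 63896604 in experiment 1 (8 libraries). In experiment 2 the 4 libraries with replicate number 3 were the deepest. Replicate 2 of Nutlin-3a plus water in experiment 1 stood apart within that experiment, with 43.5% of its reads in its top 10 rows. It correlated at 0.955 with its partner, against 0.992 to 0.997 for the other replicate pairs of experiment 1. In experiment 2 replicates of the same condition correlated at 0.932 to 0.945, below that value. The members' log2 changes in both comparisons that use the library that stood apart are also given without it. CDKN1A, the cell cycle inhibitor that p53 induces, averaged 91.6 ± 27.9 RPM with Nutlin-3a plus water and 53.1 ± 7.60 RPM with DMSO plus water in experiment 2 (SD, n = 3 each), and 116 ± 10.7 RPM with Nutlin-3a plus water and 34.1 ± 0.277 RPM with DMSO plus water in experiment 1 (SD, n = 2 each). MDM2, the second check of p53 activation, averaged 102 ± 82.1 and 47.9 ± 25.9 RPM in the same 2 conditions of experiment 2. In experiment 1 it averaged 304 ± 176 and 134 ± 9.46 RPM. With Nutlin-3a plus peptide CDKN1A averaged 83.5 ± 25.7 RPM in experiment 2 and 37.0 ± 2.47 RPM in experiment 1. MDM2 averaged 99.3 ± 82.7 and 132 ± 20.3 RPM there. Of 7 epithelial markers, 6 averaged 0.5 RPM or more, among them EPCAM at 256 RPM and KRT8 at 1383 RPM, and VIL1 was at 0.191 RPM. Of 7 leukocyte markers, CD68 at 13.2 RPM and ITGAM at 1.99 RPM passed that level, while PTPRC was at 0.0272 RPM.

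The promoters of the chemokine genes and of NFKBIA share a kappaB motif that the other members' promoters were not found to hold. Windows around it are printed here. Capitals mark the motif, lower case the flanks, all 5′ to 3′ on the strand of the gene, from RefSeq promoter sequences of GRCh38.p14.
CXCL1: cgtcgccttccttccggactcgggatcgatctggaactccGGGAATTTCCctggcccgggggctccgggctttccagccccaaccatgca
CXCL2: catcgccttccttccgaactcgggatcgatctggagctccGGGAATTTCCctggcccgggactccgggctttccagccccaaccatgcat
CXCL3: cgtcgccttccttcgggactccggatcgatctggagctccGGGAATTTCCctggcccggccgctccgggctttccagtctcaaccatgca
NFKBIA: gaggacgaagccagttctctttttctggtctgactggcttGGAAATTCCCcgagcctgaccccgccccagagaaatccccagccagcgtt

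The windows lie at chr4:73869274-73869363 (CXCL1, plus strand), chr4:74099224-74099313 (CXCL2, minus strand), chr4:74038719-74038808 (CXCL3, minus strand) and chr14:35404781-35404870 (NFKBIA, minus strand). The 10 capitals of the chemokine lines, searched on both strands, were present in 51 of 35116 RefSeq promoter windows of 300 bases, or 0.145%, and the NFKBIA capitals are the same motif on the opposite strand. The motif began 79 bases before the start site in CXCL1 and CXCL3, 78 in CXCL2 and 81 in NFKBIA. Compared base by base without gaps, the CXCL1 window was identical to that of CXCL3 at 83 of 90 bases (92.2%) and to that of CXCL2 at 68 of 90 (75.6%), CXCL2 being 1 base short after the motif. A degenerate search, for GGG and CC with any 5 bases between them on either strand, matched the promoters of all 8 members that have an entry but also 58.7% of all promoters.

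TNFAIP3 and NFKB2 held a second 10-base form, on opposite strands, that 67 promoters (0.191%) hold. NFKB2 also has a separate start site with another 10-base form, present in 13 promoters (0.0370%). These lines are shown for the contrast with the chemokine motif.
TNFAIP3: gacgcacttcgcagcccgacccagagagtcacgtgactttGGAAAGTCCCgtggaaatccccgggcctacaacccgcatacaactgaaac
NFKB2, start near the measured row: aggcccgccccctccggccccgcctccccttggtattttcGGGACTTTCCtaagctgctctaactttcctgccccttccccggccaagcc
NFKB2, upstream start: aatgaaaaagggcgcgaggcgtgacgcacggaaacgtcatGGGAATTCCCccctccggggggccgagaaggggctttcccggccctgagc

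The TNFAIP3 window is chr6:137867152-137867241, and those of NFKB2 are chr10:102395644-102395733 and chr10:102394431-102394520, all on the plus strand. The BIRC3 and ICAM1 windows held only the degenerate match, and RELB has no entry in the promoter table. A match describes the letters in these windows and not binding in these cells.

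No member passed the test in any of the 4 treatment comparisons: limma's moderated test called 0 of 8 at an adjusted p under 0.05, and also 0 of all 15958 genes (0%). In experiment 2 the means of the 3 replicate numbers spanned a wider range than the means of the 4 conditions for all 9 genes, and in experiment 1, with 2 replicate numbers, the conditions spanned the wider range for all 9. In experiment 1 the layout itself favours the conditions, with more means of fewer libraries each, so no conclusion is drawn from that count. The share of all genes was not counted for either experiment. In plain RPM the inhibitor gene NFKBIA was 5.63-fold higher in experiment 2 than in experiment 1, and 4.56-fold higher in replicates 1 and 2 alone. The 3 chemokine genes were 5.45-fold to 9.01-fold higher over all of experiment 2, and 2.42-fold to 3.71-fold higher in its replicates 1 and 2. Within experiment 2 the chemokine genes were 2.69-fold to 6.78-fold higher in replicate 3 than in the mean of replicates 1 and 2, in all 4 conditions. Because RNA was taken from bulk nuclei, fewer expressing cells and less RNA per cell cannot be told apart.

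**Figure D1:**
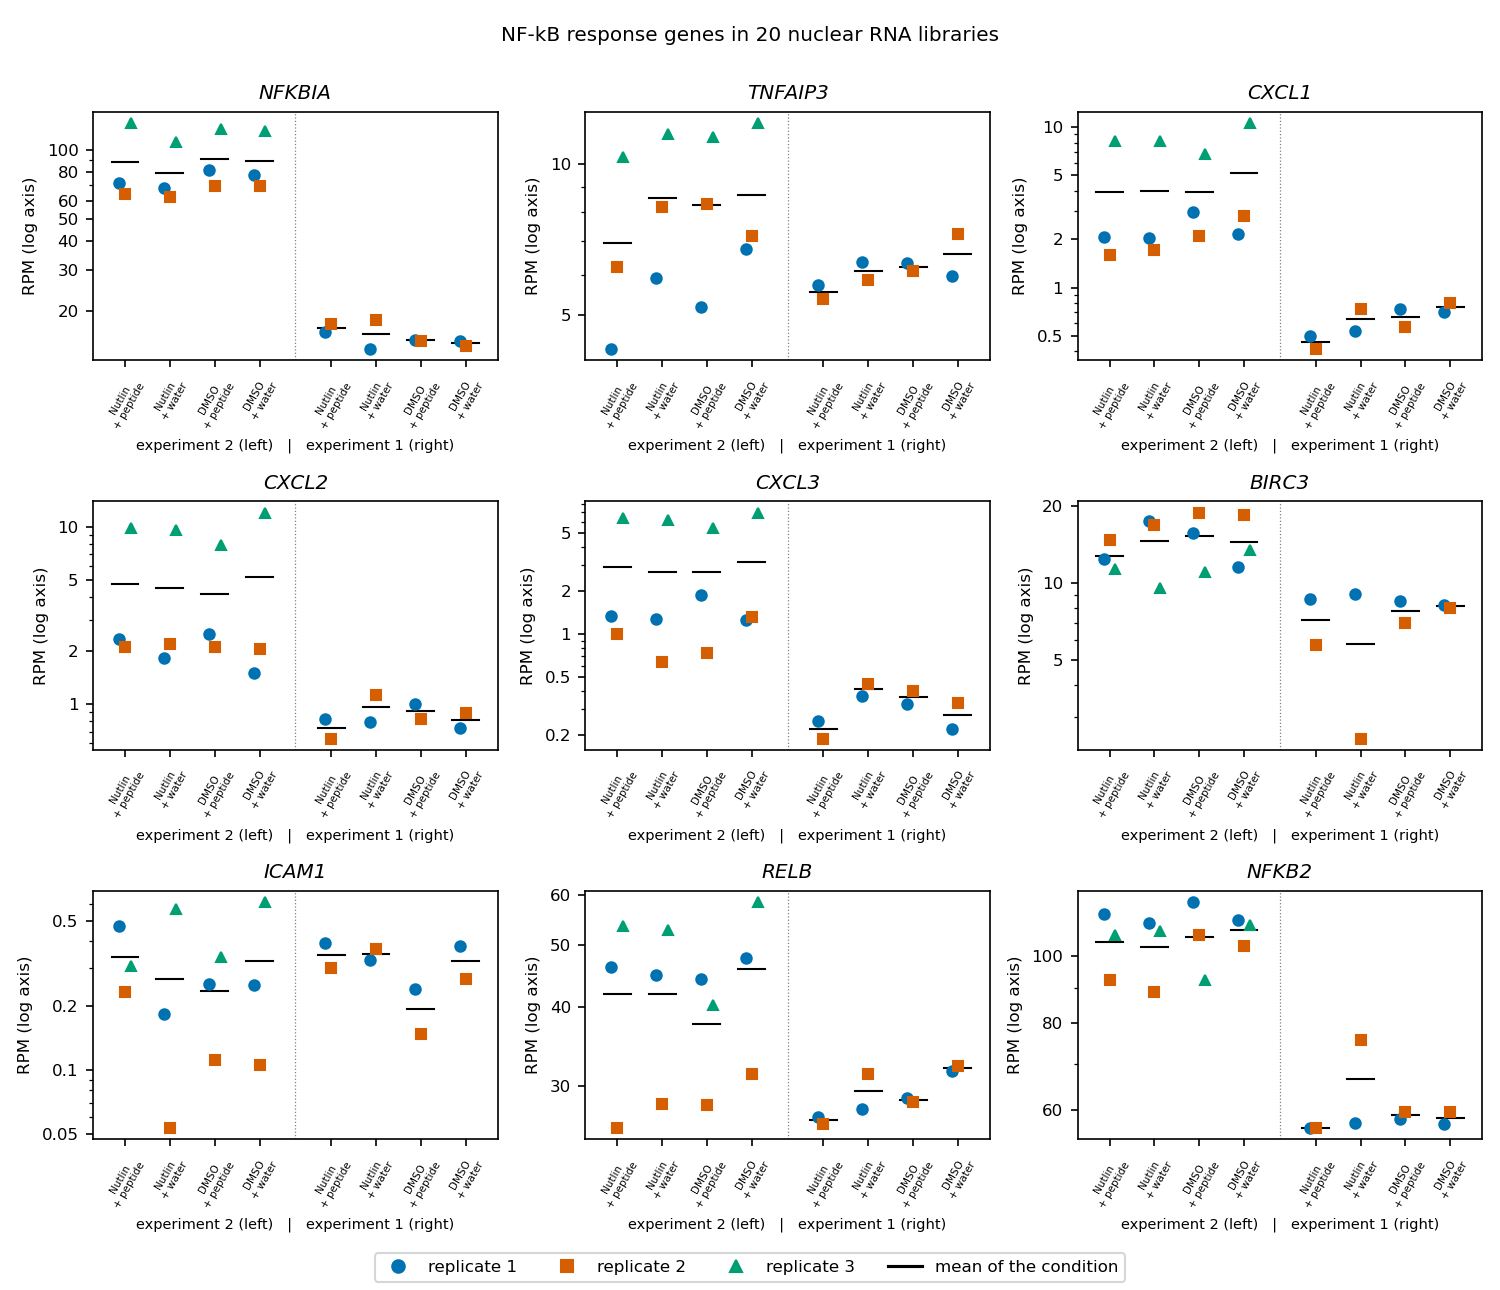
RPM on a log axis for each of the 9 genes in every library, experiment 2 left and experiment 1 right, with symbols for replicate numbers and a line for the mean of each condition. All 12 NFKBIA values of experiment 2, at least 62.3 RPM, lie above all 8 of experiment 1, at most 18.1 RPM, and the triangles of replicate 3 lie on top in the chemokine panels.

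Every library of experiment 2 lay above every library of experiment 1 in RPM for 6 of the 8 tested members, namely NFKBIA, CXCL1, CXCL2, CXCL3, BIRC3 and NFKB2, against 32.3% of all tested genes. No member lay below in the same sense, against 10.3% of all genes. Part of this difference is common to most genes, since the median gene was 0.42 higher in experiment 2 on the log2 scale in plain RPM and 0.056 higher after TMM scaling (trimmed mean of M values). After TMM scaling 2 members, NFKBIA and CXCL1, still had every library of experiment 2 above every library of experiment 1, against 19.7% of genes. For CXCL2, CXCL3 and NFKB2 only the library that stood apart, which had the smallest TMM factor (0.685), overlapped experiment 2 on that scale. The share of all genes was not counted without it. On that scale NFKBIA was 2.01 higher, CXCL1 1.54, CXCL3 1.46, CXCL2 1.29, BIRC3 0.61, NFKB2 0.41 and RELB 0.073 higher in experiment 2 (log2), while the sign turned for TNFAIP3, which was at -0.058 with TMM scaling and 0.32 in plain RPM. Experiment and every other difference between the tables, including a share of structural RNA rows of 0.629% to 3.54% in experiment 2 libraries and 15.2% to 24.4% in those of experiment 1, cannot be told apart.

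Levels of different genes were compared per kb of genomic span. In experiment 2 NFKBIA led with 27.8 ± 8.15 RPM per kb, before NFKB2 with 15.6 ± 1.44 (SD, n = 12). CXCL2 (2.23 ± 1.88), CXCL1 (2.23 ± 1.68), CXCL3 (1.41 ± 1.25) and RELB (1.15 ± 0.306 RPM per kb) followed within their spreads, then BIRC3 (0.729 ± 0.161) and TNFAIP3 (0.573 ± 0.187), which also overlapped, and ICAM1 came last with 0.0201 ± 0.0125. Replicate 3 set part of this order, since in replicates 1 and 2 alone CXCL3 was at 0.582 ± 0.190 RPM per kb, below BIRC3 at 0.803 ± 0.137 (SD, n = 8). In experiment 1 NFKB2 led with 8.86 ± 0.949 RPM per kb, before NFKBIA with 4.94 ± 0.518 and RELB with 0.800 ± 0.0647 (SD, n = 8). TNFAIP3 (0.433 ± 0.0396), CXCL2 (0.409 ± 0.0726), BIRC3 (0.367 ± 0.112) and CXCL1 (0.327 ± 0.0721 RPM per kb) did not differ from their neighbours beyond the spread, and CXCL3 (0.157 ± 0.0454) and ICAM1 (0.0209 ± 0.00576) lay below.

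NFKBIA encodes IkappaB alpha, the inhibitor that holds NF-kB dimers in the cytoplasm and is itself rapidly induced by them. Its row, NM_020529, spans chr14:35401510-35404644 on the minus strand of hg38. In experiment 2 NFKBIA had 71.5, 64.3 and 131 RPM in replicates 1, 2 and 3 with Nutlin-3a plus peptide, 68.2, 62.3 and 108 with Nutlin-3a plus water, 81.6, 69.2 and 123 with DMSO plus peptide, and 77.6, 69.6 and 121 with DMSO plus water. NFKBIA had 16.1 and 17.5 RPM in experiment 1 with Nutlin-3a plus peptide, 13.6 and 18.1 with Nutlin-3a plus water, 14.9 and 14.8 with DMSO plus peptide, and 14.8 and 14.0 with DMSO plus water. Replicate 3 was the highest in every condition of experiment 2, and the 4 conditions overlapped there. In experiment 1 both libraries with Nutlin-3a plus peptide lay above all 4 libraries with DMSO, also after TMM scaling.

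The log2 change of NFKBIA, on TMM-scaled RPM with 0.5 added, was -0.02 for Nutlin-3a against DMSO in water (95% interval -0.47 to 0.42). It was 0.12 for peptide against water under Nutlin-3a (-0.33 to 0.57), 0.059 under DMSO (-0.39 to 0.51) and 0.038 for Nutlin-3a against DMSO in peptide (-0.41 to 0.49). None of the 4 passed limma's test, the smallest unadjusted p being 0.581. Without the library that stood apart the values were -0.19 for Nutlin-3a against DMSO in water and 0.28 for peptide against water under Nutlin-3a. With the 5 replicate numbers as blocks and that library left out, the second of these had an unadjusted p of 0.0056 and an adjusted p of 0.436 by limma, in a fit where 11.3% of all genes had an unadjusted p under 0.05 and 0% were called.

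TNFAIP3 encodes A20, a ubiquitin-editing enzyme that shuts off signalling upstream of the inhibitor kinases. Its row, NM_006290, spans chr6:137867188-137881319 on the plus strand and overlaps the antisense row LOC100130476, which averaged 0.570 RPM, and whether the counting used strand is not given in the sources used here. In experiment 2 TNFAIP3 had 4.26, 6.22 and 10.3 RPM in replicates 1, 2 and 3 with Nutlin-3a plus peptide, 5.92, 8.20 and 11.5 with Nutlin-3a plus water, 5.19, 8.33 and 11.3 with DMSO plus peptide, and 6.76, 7.19 and 12.1 with DMSO plus water. TNFAIP3 had 5.73 and 5.37 RPM in experiment 1 with Nutlin-3a plus peptide, 6.36 and 5.87 with Nutlin-3a plus water, 6.33 and 6.10 with DMSO plus peptide, and 5.96 and 7.25 with DMSO plus water. In RPM, Nutlin-3a plus peptide was the lowest of the 4 conditions within each of the 5 replicate numbers, and after TMM scaling in 4 of 5. Its ranges overlapped those of the other conditions in experiment 2, and in experiment 1 they lay below them in RPM but not after TMM scaling.

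For peptide against water under Nutlin-3a the log2 change of TNFAIP3 was -0.24 (95% interval -0.68 to 0.20), lower in 5 of 5 same-numbered pairs, in one of them by a change of only -0.00115, as were 2.54% of all genes. It did not pass limma's test, with an adjusted p of 1.00 and, with replicate numbers as blocks, an unadjusted p of 0.0296 and an adjusted p of 0.592 (interval -0.45 to -0.026). Leaving out the library that stood apart gave -0.19 with an experiment term and -0.21 with blocks, where limma's unadjusted p was 0.0568. For Nutlin-3a against DMSO in peptide it was -0.20 (-0.64 to 0.23), also lower in 5 of 5 pairs, against 2.91% of genes, with an adjusted p of 1.00 in both limma fits. These 2 comparisons share the libraries with Nutlin-3a plus peptide. The values were -0.02 for Nutlin-3a against DMSO in water (-0.074 without that library) and -0.056 for peptide against water under DMSO, and the peptide effect under Nutlin-3a minus that under DMSO was -0.18 (-0.80 to 0.44), with an adjusted p of 1.00 by limma, and -0.14 without that library.

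CXCL1, CXCL2 and CXCL3 are neutrophil-attracting chemokines that signal through the receptor CXCR2 and lie in one cluster on chromosome 4. The CXCL1 row is NR_046035, a noncoding isoform of the gene at chr4:73869392-73871302 on the plus strand. CXCL3 (NM_002090, chr4:74036591-74038611) and CXCL2 (NM_002089, chr4:74097037-74099120) lie on the minus strand, with 165.288 kb between CXCL1 and CXCL3 and 58.425 kb between CXCL3 and CXCL2. Their longest GENCODE protein-coding transcripts align with 80.1% identical columns for CXCL1 and CXCL2, 71.3% for CXCL1 and CXCL3 and 66.6% for CXCL2 and CXCL3, so how reads that match more than one of them were assigned could shift counts between them.

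In replicate 3 of experiment 2 CXCL1 had 8.17 RPM with Nutlin-3a plus peptide, 8.22 with Nutlin-3a plus water, 6.79 with DMSO plus peptide and 10.6 with DMSO plus water. In replicates 1 and 2 it had 2.07 and 1.58 RPM with Nutlin-3a plus peptide, 2.05 and 1.70 with Nutlin-3a plus water, 2.95 and 2.10 with DMSO plus peptide, and 2.15 and 2.78 with DMSO plus water. CXCL1 in experiment 1 had 0.501 and 0.413 RPM with Nutlin-3a plus peptide, 0.538 and 0.736 with Nutlin-3a plus water, 0.737 and 0.568 with DMSO plus peptide, and 0.708 and 0.798 with DMSO plus water. The 3 sets of libraries did not overlap, in RPM or after TMM scaling. In replicates 1 and 2 of experiment 2 the 4 libraries with Nutlin-3a lay below the 4 without it in RPM, but not after TMM scaling. In replicate 3 and in experiment 1 the libraries with and without Nutlin-3a overlapped.

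CXCL2 had 9.79 RPM with Nutlin-3a plus peptide, 9.55 with Nutlin-3a plus water, 7.93 with DMSO plus peptide and 12.0 with DMSO plus water in replicate 3 of experiment 2. Replicates 1 and 2 had 2.33 and 2.09 RPM with Nutlin-3a plus peptide, 1.82 and 2.18 with Nutlin-3a plus water, 2.49 and 2.10 with DMSO plus peptide, and 1.5 and 2.05 with DMSO plus water. Experiment 1 had 0.829 and 0.638 RPM with Nutlin-3a plus peptide, 0.795 and 1.12 with Nutlin-3a plus water, 0.997 and 0.821 with DMSO plus peptide, and 0.735 and 0.887 with DMSO plus water. CXCL2 thus had the order of sets seen for CXCL1 in RPM, with the highest value in the same DMSO plus water library. After TMM scaling the library of experiment 1 that stood apart overlapped replicates 1 and 2, and the others of experiment 1 stayed below them.

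CXCL3 was the lowest of the chemokine genes, with 6.39 RPM with Nutlin-3a plus peptide, 6.14 with Nutlin-3a plus water, 5.42 with DMSO plus peptide and 6.94 with DMSO plus water in replicate 3 of experiment 2. Replicates 1 and 2 had 1.34 and 1.01 RPM with Nutlin-3a plus peptide, 1.27 and 0.639 with Nutlin-3a plus water, 1.85 and 0.737 with DMSO plus peptide, and 1.25 and 1.31 with DMSO plus water. Experiment 1 had 0.250 and 0.188 RPM with Nutlin-3a plus peptide, 0.374 and 0.450 with Nutlin-3a plus water, 0.325 and 0.400 with DMSO plus peptide, and 0.218 and 0.333 with DMSO plus water. After TMM scaling CXCL3 in replicates 1 and 2 overlapped experiment 1 only through the library that stood apart. The experiment 1 values rest on 8 to 22 reads per library, so small differences between conditions there were not detectable at this depth.

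**Figure D2:**
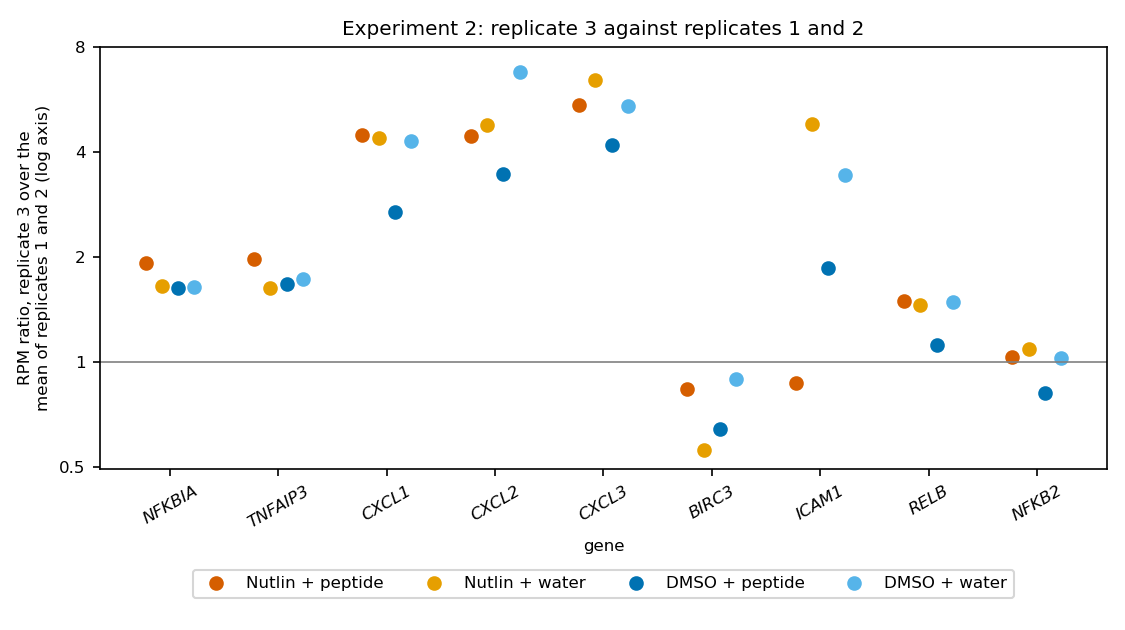
Ratio of RPM in replicate 3 to the mean of replicates 1 and 2 of the same condition in experiment 2, on a log axis, with 1 point per condition and gene. The chemokine genes lie between 2.69 and 6.78, NFKBIA and TNFAIP3 between 1.63 and 1.97, and BIRC3 below 1 in all 4 conditions.

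Replicate 3 of experiment 2 lay above replicates 1 and 2 in each of the 4 conditions for 5 of 8 tested members (NFKBIA, TNFAIP3, CXCL1, CXCL2 and CXCL3), against 28.9% of all genes. It lay at least 2-fold above both for the 3 chemokine genes, against 3.17% of all genes. With TMM scaling these counts were again 5 and 3, against 21.95% and 2.40% of genes. For CXCL3 the means of the 3 replicate numbers in experiment 2 spanned 2.11 on the log2 scale and the means of the 4 conditions 0.31, and the same spans were 1.84 and 0.11 for CXCL2 and 1.69 and 0.39 for CXCL1. In experiment 1 the means of the 2 replicate numbers spanned 0.15 for CXCL3, 0.12 for CXCL2 and 0.090 for CXCL1, and the means of the 4 conditions 0.41, 0.30 and 0.32. The layout of experiment 1 favours a wider span of the conditions. These rows were looked for after the chemokine values had been seen, and no test was made of them.

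Immediate early genes, which serum, stress and cell handling switch on within minutes, moved with replicate 3. Their summed level over 15 genes was 2543 to 2969 RPM in replicate 3 and 886 to 1576 RPM in replicates 1 and 2. In experiment 1 it was 965 RPM in the library that stood apart and 608 to 799 RPM in the others. In replicate 3, 13 of the 15 lay above replicates 1 and 2 in all 4 conditions and 8 by at least 2-fold, namely FOS, FOSB, JUN, JUNB, EGR1, EGR2, IER2 and DUSP1. The 39 other NF-kB target rows summed to 2693 to 2919 RPM in replicate 3, against 1305 to 2529 RPM in replicates 1 and 2. Most of that sum was IER3, an early response gene, at a mean of 1265 RPM in replicate 3, against 574 RPM in replicates 1 and 2, and the transcription factor KLF6, at 629.9 RPM, against 168 RPM. Only 8 of the 24 tested targets lay above replicates 1 and 2 in all 4 conditions, near the 28.9% of all genes, and others were lower, as LCN2 at 0.454 RPM, against 76.8 RPM, and BCL2L1 at 83.5 RPM, against 152 RPM. The 7 fibroblast and endothelial markers summed to 57.8 to 93.3 RPM in replicate 3, against 19.7 to 45.7 RPM in replicates 1 and 2, most of it COL1A1, while COL1A2 averaged 0.00527 RPM. The 7 leukocyte markers summed to 18.2 to 21.0 RPM in replicate 3, within the 10.6 to 38.8 RPM of replicates 1 and 2, most of it CD68, and PTPRC averaged 0.0376 RPM. The 7 epithelial markers summed to 2287 to 2643 RPM in replicate 3, below the 3349 to 4362 RPM of replicates 1 and 2 and without overlap, with CDH1 at a mean of 12.9 RPM, against 71.2 RPM. The part of handling, depth and these genes in the chemokine levels was not tested.

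None of the chemokine genes passed limma's test in any comparison, and their intervals were the widest of the members in the fit with an experiment term. CXCL1 gave a log2 change of -0.24 for Nutlin-3a against DMSO in water (95% interval -1.10 to 0.62), -0.12 for peptide against water under Nutlin-3a (-0.99 to 0.74), -0.14 under DMSO (-1.004 to 0.72) and -0.22 for Nutlin-3a against DMSO in peptide (-1.08 to 0.64). CXCL2 gave 0.077, -0.051, 0.071 and -0.045 in the same 4 comparisons, and CXCL3 gave -0.047, -0.060, -0.0027 and -0.10. Leaving out the library that stood apart made the first 2 of these -0.059 and 0.081 for CXCL2 and -0.17 and 0.056 for CXCL3, and the second was -0.011 for CXCL1. With replicate numbers as blocks the interval of CXCL1 for Nutlin-3a against DMSO in water narrowed to -0.52 to 0.038, with an unadjusted p of 0.0869. That change of CXCL1 was -0.36 without the library that stood apart, in the fit with an experiment term. The blocked fit without that library makes its own estimate of the change. There limma gave an unadjusted p of 0.00623 and an adjusted p of 0.254, while 13.5% of genes had an unadjusted p under 0.05 and 0.0313% were called.

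BIRC3 encodes cIAP2, a ubiquitin ligase that protects cells from death receptor signalling and restrains the noncanonical branch of the pathway. Its row, NM_001165, spans chr11:102317450-102337102 on the plus strand. In experiment 2 BIRC3 had 12.4, 14.7 and 11.3 RPM in replicates 1, 2 and 3 with Nutlin-3a plus peptide, 17.5, 16.9 and 9.62 with Nutlin-3a plus water, 15.8, 18.9 and 11.1 with DMSO plus peptide, and 11.6, 18.5 and 13.5 with DMSO plus water. BIRC3 had 8.65 and 5.76 RPM in experiment 1 with Nutlin-3a plus peptide, 9.07 and 2.47 with Nutlin-3a plus water, 8.56 and 6.99 with DMSO plus peptide, and 8.22 and 8.01 with DMSO plus water. The value of 2.47 RPM belongs to the library that stood apart and is the lowest of the 20.

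Its log2 change for Nutlin-3a against DMSO in water was -0.26 (95% interval -0.79 to 0.27) with that library and -0.021 without it. For peptide against water under Nutlin-3a it was 0.13 (-0.41 to 0.66) with the library and -0.12 without it. It was 0.033 (-0.50 to 0.57) for peptide against water under DMSO and -0.17 (-0.70 to 0.36) for Nutlin-3a against DMSO in peptide. None passed limma's test, at an adjusted p of 1.00 in each.

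ICAM1 encodes an adhesion molecule by which leukocytes attach to endothelium and inflamed epithelium. Its row, NM_000201, spans chr19:10270841-10285287 on the plus strand and held 1 to 25 reads per library. In experiment 2 ICAM1 had 0.474, 0.232 and 0.307 RPM in replicates 1, 2 and 3 with Nutlin-3a plus peptide, 0.182, 0.0532 and 0.567 with Nutlin-3a plus water, 0.253, 0.111 and 0.337 with DMSO plus peptide, and 0.250, 0.105 and 0.610 with DMSO plus water. In experiment 1 it had 0.391 and 0.3003 RPM with Nutlin-3a plus peptide, 0.327 and 0.368 with Nutlin-3a plus water, 0.238 and 0.147 with DMSO plus peptide, and 0.381 and 0.266 with DMSO plus water. The conditions overlapped, except that both DMSO plus peptide libraries of experiment 1 lay below the other 6 of that experiment. In a fit without the filter on low values its log2 changes were -0.015, 0.094, -0.17 and 0.25 for Nutlin-3a against DMSO in water, peptide against water under Nutlin-3a, peptide against water under DMSO and Nutlin-3a against DMSO in peptide, with adjusted p of 1.00 by limma in each. The last had an unadjusted p of 0.0462 with replicate numbers as blocks and was higher in 4 of 5 pairs. The first 2 changes were -0.091 and 0.17 without the library that stood apart. Differences of this size rest on a few reads.

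RELB and NFKB2 encode the partners of the noncanonical NF-kB dimer, RelB and the p100 precursor that is cut to p52, and both genes are themselves NF-kB targets. The RELB row, NM_006509, spans chr19:45001449-45037790 and that of NFKB2, NM_002502, spans chr10:102395596-102402376, both on the plus strand. In experiment 2 RELB had 46.2, 25.7 and 53.6 RPM in replicates 1, 2 and 3 with Nutlin-3a plus peptide, 44.8, 28.1 and 52.9 with Nutlin-3a plus water, 44.2, 28.0 and 40.3 with DMSO plus peptide, and 47.6, 31.3 and 58.5 with DMSO plus water. RELB had 26.8 and 26.1 RPM in experiment 1 with Nutlin-3a plus peptide, 27.6 and 31.3 with Nutlin-3a plus water, 28.7 and 28.2 with DMSO plus peptide, and 31.6 and 32.3 with DMSO plus water. DMSO plus water was the highest condition within each of the 5 replicate numbers in RPM, and in 4 of 5 after TMM scaling, where Nutlin-3a plus water of the library that stood apart was higher.

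For peptide against water under DMSO the log2 change of RELB was -0.20 (95% interval -0.64 to 0.24), lower in 5 of 5 pairs, as were 2.8% of all genes. It did not pass limma's test, with an adjusted p of 1.00 and, with replicate numbers as blocks, an unadjusted p of 0.0433 (interval -0.39 to -0.0067) and an adjusted p of 1.00. For Nutlin-3a against DMSO in water it was -0.092 (-0.54 to 0.35) with all libraries and -0.20 without the library that stood apart, both with an experiment term. Limma's blocked fit without that library, which makes its own estimate, gave an unadjusted p of 0.00817 and an adjusted p of 0.274. In that blocked fit 13.5% of all genes had an unadjusted p under 0.05. Both comparisons share the DMSO plus water libraries. The values were -0.070 for peptide against water under Nutlin-3a (0.037 without that library) and 0.039 for Nutlin-3a against DMSO in peptide.

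NFKB2 had 115, 92.5 and 107 RPM in replicates 1, 2 and 3 with Nutlin-3a plus peptide in experiment 2, 112, 88.9 and 109 with Nutlin-3a plus water, 120, 107 and 92.6 with DMSO plus peptide, and 113, 103 and 111 with DMSO plus water. NFKB2 had 56.6 and 56.5 RPM in experiment 1 with Nutlin-3a plus peptide, 57.4 and 75.7 with Nutlin-3a plus water, 58.2 and 59.7 with DMSO plus peptide, and 57.2 and 59.6 with DMSO plus water. The value of 75.7 RPM is again that of the library that stood apart, and the other 7 libraries of experiment 1 lay within 56.5 to 59.7 RPM. In the fit with an experiment term NFKB2 had the narrowest intervals of the tested members, and with replicate numbers as blocks those of RELB and TNFAIP3 were narrower. Its log2 changes were 0.049 (95% interval -0.28 to 0.38) for Nutlin-3a against DMSO in water, -0.069 (-0.40 to 0.26) for peptide against water under Nutlin-3a, 0.0053 (-0.33 to 0.34) under DMSO and -0.025 (-0.36 to 0.31) for Nutlin-3a against DMSO in peptide. Without that library the first was -0.12 and the second 0.096.

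**Figure D3:**
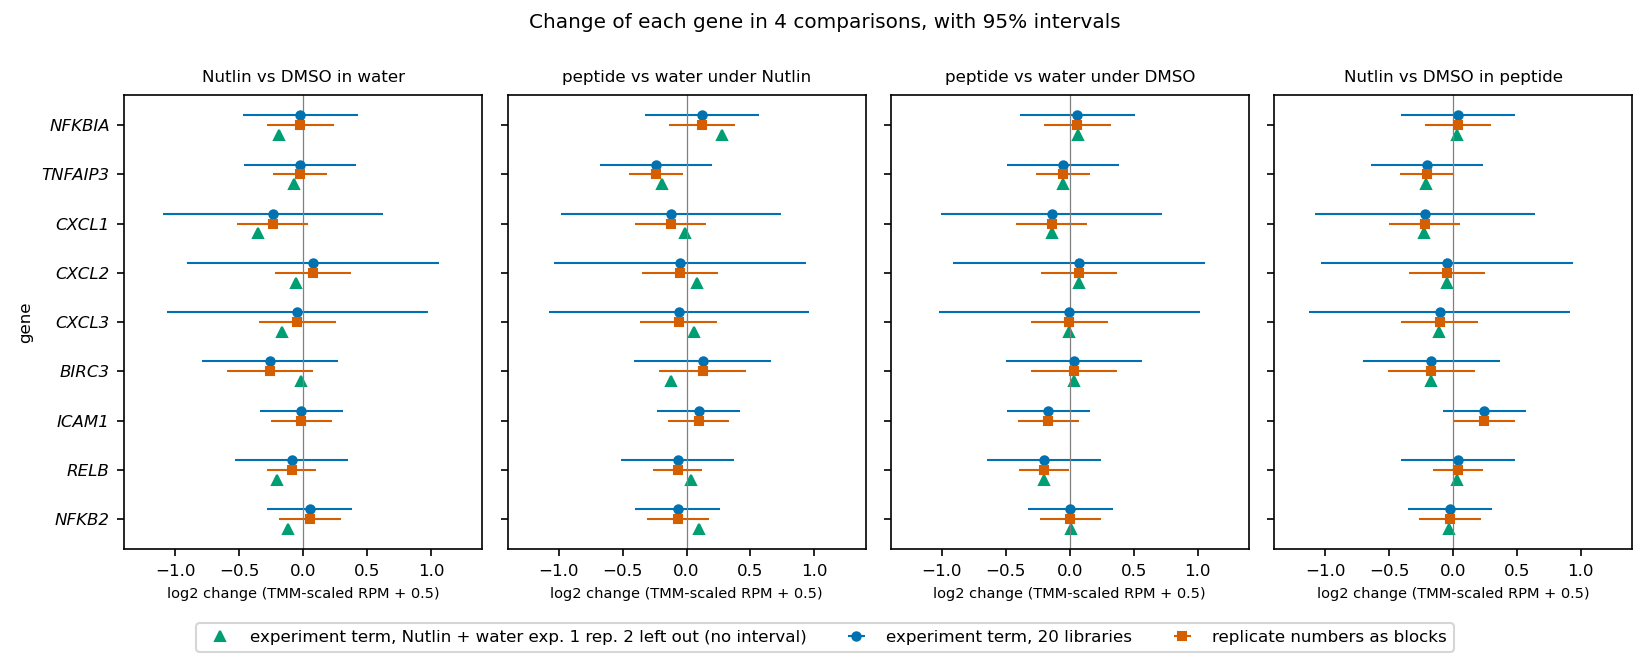
Log2 change of each gene (rows) in the 4 comparisons (panels), with 95% intervals from limma with an experiment term (circles) and with replicate numbers as blocks (squares), and the value without the library that stood apart (triangles; not drawn for ICAM1). All circles have intervals that include 0, and the blocked intervals exclude 0 for TNFAIP3 under Nutlin-3a, RELB under DMSO and ICAM1 in peptide, none of which passed after adjustment.

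In Nutlin-3a against DMSO in water, which asks what p53 activation does without the peptide, the median log2 change of the 8 tested members was -0.035 and that of all genes -0.017, and 2 of 8 lay above 0, against 45.0% of all genes. Without the library that stood apart the members' median was -0.14, that of all genes -0.0050, and 0 of 8 lay above 0, against 48.6% of all genes. At an unadjusted p under 0.05 limma gave 0 of 8 members and 94 of all genes (0.589%), limma-voom on the recovered reads gave 0 members and 110 genes with 0 called, and the blocked fit gave 0 members and 1160 genes (7.27%). Without the library that stood apart the blocked fit gave 2 of 8 members, CXCL1 and RELB, both lower, and 13.5% of all genes. Adjusted, it called 5 genes (0.0313%), none of them a member. Blocked limma-voom called 15 genes, none of them a member.

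In peptide against water under Nutlin-3a, which asks what the peptide does to cells with activated p53, the members' median was -0.064, against 0.039 for all genes, and 2 of 8 lay above 0, against 60.6% of all genes. Without the library that stood apart the members' median was 0.046, that of all genes 0.010, and 5 of 8 lay above 0, against 53.1% of all genes. Limma gave 0 of 8 members and 80 of all genes (0.501%) at an unadjusted p under 0.05, limma-voom 0 members and 114 genes, and the blocked fit 1 member, TNFAIP3, and 1315 genes (8.24%). Adjusted, limma and limma-voom called 0 genes, and blocked limma-voom called 3, none of them a member.

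In peptide against water under DMSO, the effect of the peptide on cells without Nutlin-3a, the members' median was 0.0013, against 0.028 for all genes, and 4 of 8 lay above 0, against 62.9% of all genes. Limma gave 0 members and 14 genes (0.0877%) at an unadjusted p under 0.05, limma-voom 0 members and 17 genes, and the blocked fit 1 member, RELB, and 179 genes (1.12%). Blocked limma-voom called 0 genes. Without the library that stood apart RELB again had an unadjusted p under 0.05 in the blocked fit, at 0.00434, with an adjusted p of 0.927 by limma, where 3.26% of genes did so.

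In Nutlin-3a against DMSO in peptide, which asks what remains of the Nutlin-3a response under the peptide, the members' median was -0.075, against -0.011 for all genes, and 2 of 8 lay above 0, against 44.9% of all genes. Limma gave 0 members and 26 genes (0.163%) at an unadjusted p under 0.05, limma-voom 0 members and 56 genes, and the blocked fit 0 tested members and 291 genes (1.82%). Blocked limma-voom called 16 genes, none of them a member. Without the library that stood apart the blocked fit gave an unadjusted p of 0.0360 for TNFAIP3, against 5.13% of genes under 0.05, with an adjusted p of 0.920 by limma. The peptide effect also did not pass as a difference between Nutlin-3a and DMSO, with 0 of 8 members and 0 of all genes (0%) called by limma and 27 genes at an unadjusted p under 0.05, while blocked limma-voom called 4 genes, none of them a member. No member passed the test of a difference between the experiments in any of the 4 comparisons, with a smallest unadjusted p of 0.119, for NFKB2 in Nutlin-3a against DMSO in water, and adjusted p of 1.00 by limma. Of all genes 0 or 1 passed in each comparison. The standard errors of these differences ran from 0.32 for NFKB2 to 1.08 for CXCL3 (log2), so differences of that size and well above it could go unseen.

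The wider pathway was followed through 78 tested genes in lists of ligands, receptors, adaptors and kinases, subunits, inhibitors and other targets, and limma called 0 of them in each of the 4 comparisons, with 0 at an unadjusted p under 0.05. In Nutlin-3a against DMSO in water the smallest unadjusted p by limma among them were those of RIPK2, a kinase that relays signals of bacterial cell wall sensors (log2 change -0.20, SE 0.12), TAP1, the peptide transporter of antigen presentation (0.24, SE 0.16), and the TNF receptor TNFRSF1A (0.20, SE 0.16), each with an adjusted p of 1.00. These were -0.14, 0.12 and 0.13 without the library that stood apart. In the blocked fit 7 of the 78 genes had an unadjusted p under 0.05, with 5 higher and 2 lower, a share of 8.97% against 7.27% of all genes. In peptide against water under Nutlin-3a the genes with the smallest limma p were SOD2, the mitochondrial superoxide dismutase (0.20, SE 0.13), TNFRSF13C, the receptor of B cell activating factor (-0.29, SE 0.20), and COMMD1, which promotes turnover of RelA (0.27, SE 0.23). Without that library these were 0.13, -0.14 and 0.13, and in the blocked fit 7 of 78 again had an unadjusted p under 0.05, with 2 higher and 5 lower, against 8.24% of all genes.

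In peptide against water under DMSO the smallest unadjusted p by limma were those of the interleukin-1 receptor IL1R1 (0.21, SE 0.19), the TNF receptor adaptor TRADD (0.20, SE 0.21) and the deubiquitinase CYLD (0.16, SE 0.18). PTGS2, the inducible cyclooxygenase, gave 0.31 there, with an unadjusted p of 0.00394 in the blocked fit and an adjusted p of 1.00 by limma. In Nutlin-3a against DMSO in peptide the genes with the smallest limma p were CYLD (-0.20, SE 0.18) and the Toll-like receptor adaptor MYD88 (0.13, SE 0.14). At an unadjusted p under 0.05 the blocked fit gave 1 of the 78 genes under DMSO, that of PTGS2, and 0 in Nutlin-3a against DMSO in peptide.

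Of the 10 ligand genes, 3 averaged 0.5 RPM or more. The cytokine IL18 averaged 46.8 RPM over the 20 libraries, and 5.80 RPM in replicate 3 of experiment 2, against 85.5 RPM in replicates 1 and 2 and 28.4 RPM in experiment 1. TNFSF12 averaged 5.91 RPM and TNFSF13B 2.89 RPM. The other 7 averaged 0.272 RPM or less, with TNF at 0.0683 RPM, IL1B at 0.00868 RPM and CD40LG at 0 in every library.

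The chemokine genes varied together across libraries. With log2 levels centred within each experiment, Pearson's r over 20 libraries was 0.96 for CXCL1 and CXCL2, 0.96 for CXCL1 and CXCL3 and 0.95 for CXCL2 and CXCL3. Over the 16 libraries without replicate 3 of experiment 2 these were 0.54, 0.72 and 0.49, and they share depth, replicate number and possibly reads. NFKBIA had r of 0.78 to 0.81 with the chemokine genes over 20 libraries and 0.48 to 0.54 over the 16, and with NFKB2 0.32 over 20 libraries and 0.89 over the 16. BIRC3 ran against every other member, from -0.75 with NFKBIA to -0.38 with NFKB2 over 20 libraries, and from -0.73 with NFKB2 to -0.054 with TNFAIP3 over the 16. No r between members was computed without the library of experiment 1 that stood apart. That library held the lowest BIRC3 value of the 20 (2.47 RPM) and the highest NFKB2 value of experiment 1 (75.7 RPM). How far the r values of these genes rest on it was not tested. All r values here are descriptions, and the libraries with replicate number 3 form a cluster of their own.

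**Figure D4:**
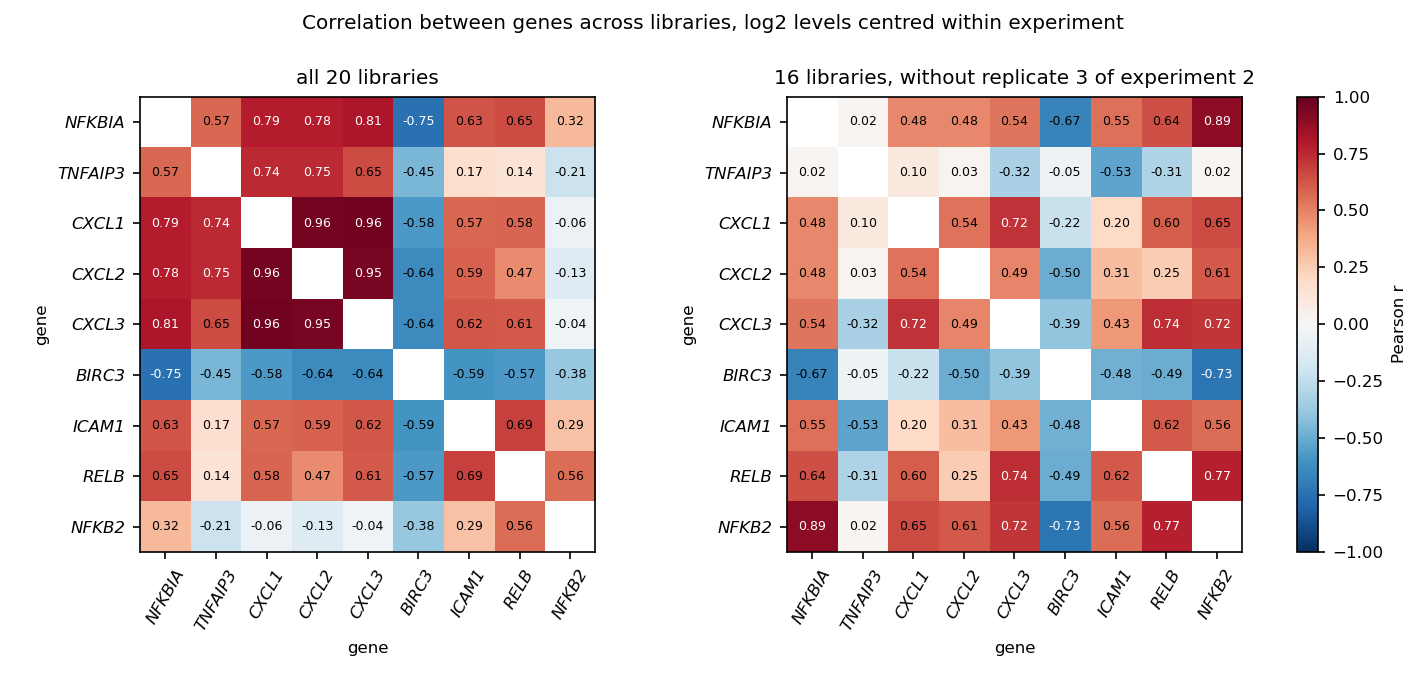
Pearson's r between the 9 genes across libraries, with log2 levels centred within each experiment, for all 20 libraries (left) and the 16 without replicate 3 of experiment 2 (right). The chemokine block of 0.95 to 0.96 on the left falls to 0.49 to 0.72 on the right, and the BIRC3 row is negative in both.

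Of 11832 other genes that averaged 5 RPM or more, those whose centred pattern was most like the mean of the 9 members over 20 libraries were SPRY4, an inhibitor of receptor tyrosine kinase signalling (r = 0.964), the transcription factor SOX4 (0.964), THAP3 (0.958), the cancer-testis gene CSAG1 (0.957) and SSBP3 (0.957). Their r was 0.959 to 0.967 over the 19 libraries left without the one that stood apart, and 0.769 to 0.834 over the 16 without replicate 3 of experiment 2. SPRY4 averaged 210 RPM in replicate 3 of experiment 2, against 97.4 RPM in replicates 1 and 2, and CSAG1 27.9 RPM against 1.92 RPM. In all, 113 of the 11832 genes had an r above 0.9, so the likeness is not particular to these 5. The mean itself followed the chemokine genes most, with r of 0.950 to 0.980 over 20 libraries, and NFKBIA with 0.863. TNFAIP3, RELB and ICAM1 had r of 0.674 to 0.693 with it, NFKB2 0.072 and BIRC3 -0.637. The mean therefore does not stand for all 9 members.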

How the data were processed

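Nuclear RNA-seq of 20 HCT116 libraries was analysed from 2 tables, 1 per experiment, each with 26485 rows of 1 RefSeq isoform per symbol. Per the submitters' processing notes the tools were HISAT2, bedtools and limma and the build hg38, without versions or roles. The values the authors deposited are a normalised signal: RPM divided by a quantity of each row, namely stop - (start / 1000), which is not its length. Multiplying by that quantity gave RPM, and whole reads came out for 100% of values at a tolerance of 0.001. This is another unit than the design assumed. Libraries were scaled by TMM (30% and 5% trimmed), 0.5 was added before the log2, and 15958 genes averaging 0.5 RPM or more were tested with limma 3.58.1 in R 4.3.3, with a trend, condition and experiment terms and Benjamini-Hochberg adjustment over all genes. The procedure was tested on simulated data. Intervals are 95% intervals of limma's moderated fit. Plots were drawn in Python 3.11.15 (matplotlib 3.10.9).

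Same-numbered libraries were taken as pairs from the values, since no label states it: their deviations from condition means correlated with r between 0.877 and 0.940 over the 18 pairs of experiment 2 and between 0.286 and 0.585 in experiment 1, where with 2 replicates the 12 pairs give only 6 distinct values. The blocked fit has 5 replicate numbers. Named genes are the 9 members, up to 6 wider pathway genes per comparison by unadjusted p, of which the leading ones are described, 5 genes by likeness, and check genes. Ligands, markers other than EPCAM, KRT8 and PTPRC, and IER3, KLF6, LCN2 and BCL2L1 were named after their values were seen. The 7 mitochondrially encoded genes listed had no row. Members and lists were chosen with earlier results of these data known. The row was the same in both experiments for 24818 symbols and another isoform for 1667, and counts over all genes between experiments include both. Read depth per library limits precision for ICAM1 and CXCL3, and errors given are those between libraries. Other settings were scalings, filters, pseudocounts, limma-voom, blocks, single experiments and each library left out.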

Additional observations from a re-analysis of the deposited data

Results flagged for a closer look

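Within each condition the 5 libraries of each gene, centred within experiment on the log2 scale, were searched for a library far from the rest, which made 36 searches, of which chance would pick about 1 in 20. The search picked 1. CXCL3 in replicate 3 of DMSO plus water in experiment 2, at 6.94 RPM, had a gap to its nearest neighbour of 0.7355 of the whole range, above Dixon's limit for 5 values. In plain RPM the same library had the highest CXCL1, CXCL2, TNFAIP3, RELB and ICAM1 values of the 20. The search itself used TMM-scaled values, where that order can differ. The immediate early genes of replicate 3 are given beside the chemokine levels in the results, and their part was not tested.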

How the results depend on the processing

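Across 37 other settings, 0 members were called in any comparison, and the smallest adjusted p of a member was 0.0999 by limma, with experiment 2 alone and blocks. Of 1312 values of the 36 member results, 1184 kept their direction and 128 did not, all of results no larger than 0.24 in size. Of the counts between experiments, 2 members (TMM) and 2 members (median of ratios) kept all libraries of experiment 2 above experiment 1, against 6 in plain RPM. Under both scalings the library that stood apart alone made the overlap of CXCL2, CXCL3 and NFKB2. The counts for replicate 3 were 5 and 3 under all 3 scalings. With the replicate numbers as blocks the log2 changes were those of the experiment term, with smaller errors and 0 member calls, and the members' median for Nutlin-3a against DMSO in water was -0.035. Settings chosen after the data were seen were blocked limma-voom, leaving out replicate 3 of experiment 2, the scalings of levels, and ICAM1 without the filter.

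The following log2 changes had the opposite sign to the main one, and the cause was not tested. In Nutlin-3a against DMSO in water they were 0.34 for NFKBIA, 0.11 for TNFAIP3, 0.000266 for CXCL1, 0.11 for RELB and 0.15 for ICAM1 with experiment 1 alone, and 0.0329 for NFKBIA, 0.0194 for CXCL3 and 0.0117 for ICAM1 with 8 group means. They were 0.0135 for NFKBIA without replicate 3 of experiment 2 in all conditions, and -0.00368 for CXCL2 and 0.0000694 for ICAM1 at a pseudocount of 5. They were -0.0656 for CXCL2 and -0.11 for NFKB2 with blocks and without replicate 2 of Nutlin-3a in water of experiment 1, and -0.0636 for CXCL2 and -0.16 for NFKB2 with experiment 2 alone, blocked or not. They were -0.0496 for CXCL2 with blocked limma-voom. In peptide against water under Nutlin-3a they were 0.0877 for CXCL2, 0.0539 for CXCL3, -0.085 for BIRC3, 0.0289 for RELB and 0.0854 for NFKB2 with blocks and without replicate 2 of Nutlin-3a in water of experiment 1, and 0.11 for CXCL2, 0.18 for CXCL3, -0.13 for BIRC3, 0.00162 for RELB and 0.0496 for NFKB2 with experiment 2 alone, blocked or not. They were -0.0524 for ICAM1 with experiment 1 alone. In peptide against water under DMSO they were -0.00963 for CXCL2 at a pseudocount of 5, and -0.0925 for CXCL2 with blocked limma-voom. They were 0.0372 for CXCL3 at a pseudocount of 0.1, and 0.0274 for CXCL3 with 8 group means. They were 0.0463 for CXCL3 without replicate 3 of experiment 2 in all conditions, and -0.0688 for BIRC3 with experiment 1 alone. They were -0.0192 for NFKB2 without TMM factors, and -0.0155 for NFKB2 with median-of-ratios factors. They were -0.0127 for NFKB2 with experiment 2 alone, blocked or not, and -0.00584 for NFKB2 without structural RNA rows. In Nutlin-3a against DMSO in peptide they were -0.14 for NFKBIA and 0.000267 for CXCL2 with experiment 2 alone, blocked or not, and 0.00531 for CXCL2 with blocked limma-voom. They were 0.0137 for BIRC3 and 0.0841 for NFKB2 with experiment 1 alone, and -0.0103 for RELB without replicate 3 of experiment 2 in all conditions.

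With each library left out in turn, the members' median for peptide against water under DMSO lay between -0.19 and 0.11. The other results whose sign turned in such a fit, all uncalled, had these lowest and highest values. They were -0.19 to 0.0906 for NFKBIA, -0.11 to 0.084 for TNFAIP3, -0.52 to 0.0686 for CXCL1, -0.22 to 0.48 for CXCL2, -0.36 to 0.30 for CXCL3, -0.21 to 0.0547 for RELB, -0.12 to 0.13 for NFKB2 and -0.11 to 0.10 for ICAM1 in Nutlin-3a against DMSO in water. They were -0.43 to 0.15 for CXCL1, -0.37 to 0.25 for CXCL2, -0.40 to 0.26 for CXCL3, -0.12 to 0.26 for BIRC3, -0.22 to 0.0872 for RELB, -0.15 to 0.10 for NFKB2 and -0.027 to 0.19 for ICAM1 in peptide against water under Nutlin-3a. They were -0.0729 to 0.17 for NFKBIA, -0.18 to 0.0614 for TNFAIP3, -0.36 to 0.17 for CXCL1, -0.19 to 0.47 for CXCL2, -0.29 to 0.35 for CXCL3, -0.0524 to 0.15 for BIRC3 and -0.074 to 0.0726 for NFKB2 in peptide against water under DMSO. They were -0.0718 to 0.17 for NFKBIA, -0.36 to 0.22 for CXCL2, -0.44 to 0.19 for CXCL3, -0.0639 to 0.20 for RELB and -0.0936 to 0.0544 for NFKB2 in Nutlin-3a against DMSO in peptide.

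Reads limit ICAM1 (1 to 25 per library) and CXCL3 in experiment 1 (8 to 22), and the spread between replicate numbers limits the chemokine genes, whose intervals with an experiment term reach about 1 on the log2 scale in either direction.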
